A study of Rattus norvegicus with 6 samples.

Results

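The 10 genes described are the TGF-beta ligands Tgfb1, Tgfb2 and Tgfb3, their receptors Tgfbr1, Tgfbr2 and Tgfbr3, and the intracellular mediators Smad2, Smad3, Smad4 and Smad7. They were chosen by gene name, with earlier results of these data known, in a count table of 43035 rows, with 32883 rows of annotated genes. The other 10152 rows are unannotated, that is, transcribed regions named by a number and not by a gene. Each gene has 1 annotated row, and 7 unannotated rows overlap a member on its own strand, so that the genes account for 17 rows in all. RNA-seq was performed on primary cardiomyocytes of neonatal Sprague-Dawley rats, given in the labels as postnatal day 1, with no genetic change in either group. The cells were transfected with Lipofectamine 3000 and either a scrambled siRNA (si-NC, n = 3 libraries) or an siRNA against DYRK1A, a protein kinase (si-DYRK1A, n = 3 libraries), and RNA was taken after 48 h. The comparison asks which transcripts change when the kinase is targeted in these cells, and both groups received the transfection. Primary cultures of this kind also hold other cardiac cells, and in bulk RNA fewer cells of a type and less RNA per cell cannot be told apart.

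TGF-beta ligands are secreted in a latent form, and once released they bring together the type II receptor Tgfbr2 and the type I receptor Tgfbr1, both of which are kinases. The type I receptor phosphorylates Smad2 and Smad3, which join Smad4 and enter the nucleus to act on target genes, while Smad7, itself induced by the pathway, blocks the receptor. In the heart the pathway is best known for extracellular matrix production by fibroblasts, and Tgfb2 is known for its part in the formation of valves and septa.

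The libraries held 10325074 to 11921772 counts. Dyrk1a, the targeted gene, had 0 to 3 counts per library on its annotated row. The unannotated row that spans it on its strand had 74.5, 77.7 and 80.9 CPM in si-NC (counts scaled to the effective library size). In si-DYRK1A this row had 85.4, 80.1 and 81.7 CPM, a log2 fold change of 0.08 (SE 0.0575, adjusted p = 0.374 in edgeR). The reduction of the target was thus not seen at this locus, and the groups below are those of the labels. Which bases gave the counts of this row is not given, so the row cannot decide whether the Dyrk1a mRNA fell. The study reports knockdown of the DYRK1A protein by siRNA in neonatal rat cardiomyocytes, measured by immunoblot. Of 15513 rows with enough counts to be tested, 2360 (15.2%) passed an adjusted p of 0.05 in edgeR's quasi-likelihood test. Those higher in si-DYRK1A made up 8.03% of the rows tested and those lower 7.19%, and the groups did not overlap in CPM in 31.5%. Every p-value below sets a difference between the groups against the variation between these cultures, which the series text calls biological replicates.

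Among the ligands, receptors and Smads, 10 of the 17 rows passed the filter on low counts, 5 annotated and 5 unannotated, and each of these 10 had at least 75 counts in every library. In total 5 of the 10 were called (against 15.2% of all rows), 3 higher and 2 lower, (8.03% and 7.19% of all rows), and the groups did not overlap in 6 (31.5% of all rows). All 3 rows called higher belonged to Tgfb2 and Tgfb3, and the rows called lower were Tgfb1 and Smad3. Tgfb2 is counted 2 times here, through overlapping rows. With such rows summed, 4 of 9 were called, 2 higher and 2 lower, against 15.6% of all rows. No receptor row was called by edgeR, with 1 of 3 at an unadjusted p under 0.05, nor by DESeq2 or limma-voom. The share of all rows at an unadjusted p under 0.05 is not given here, for this count or those below. The median absolute log2 fold change of the 10 rows was 0.19, beside 0.18 over all rows tested.

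The promoters of the 4 genes with a called row are shown because these genes moved in opposite directions. They are RefSeq windows on GRCr8, from 250 bases before to 50 bases after the listed start, read along the strand of the gene, with the core Smad-binding letters AGAC and their reverse complement GTCT in capitals. The windows lie at chr1:90324062-90324361 (plus strand) for Tgfb1, chr13:100792636-100792935 (minus strand) for Tgfb2, chr6:111456897-111457196 (minus strand) for Tgfb3 and chr8:73132275-73132574 (minus strand) for Smad3.
Tgfb1: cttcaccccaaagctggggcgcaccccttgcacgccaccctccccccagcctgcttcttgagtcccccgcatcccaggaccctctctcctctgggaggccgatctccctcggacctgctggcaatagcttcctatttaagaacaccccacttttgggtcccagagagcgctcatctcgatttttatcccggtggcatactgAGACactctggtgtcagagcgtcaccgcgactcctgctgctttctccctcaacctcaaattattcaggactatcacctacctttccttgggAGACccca
Tgfb2: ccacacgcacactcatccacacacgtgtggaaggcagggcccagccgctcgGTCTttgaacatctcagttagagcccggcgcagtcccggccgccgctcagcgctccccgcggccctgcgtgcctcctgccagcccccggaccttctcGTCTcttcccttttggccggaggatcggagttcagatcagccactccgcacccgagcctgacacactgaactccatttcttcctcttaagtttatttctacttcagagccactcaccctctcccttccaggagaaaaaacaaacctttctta
Tgfb3: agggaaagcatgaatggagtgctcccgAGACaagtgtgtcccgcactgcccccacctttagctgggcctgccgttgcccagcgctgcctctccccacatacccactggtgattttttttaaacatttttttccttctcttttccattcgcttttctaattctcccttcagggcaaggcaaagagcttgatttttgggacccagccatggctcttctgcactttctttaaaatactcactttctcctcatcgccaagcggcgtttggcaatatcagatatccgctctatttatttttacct
Smad3: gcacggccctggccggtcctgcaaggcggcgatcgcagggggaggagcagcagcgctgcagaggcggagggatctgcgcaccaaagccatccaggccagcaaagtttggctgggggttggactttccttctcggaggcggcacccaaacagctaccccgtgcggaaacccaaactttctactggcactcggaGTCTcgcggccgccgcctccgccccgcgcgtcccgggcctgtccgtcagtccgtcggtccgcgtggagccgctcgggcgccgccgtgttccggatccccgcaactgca
The 4 letters occurred 2 times in the windows of Tgfb1 and Tgfb2 and 1 time in those of Tgfb3 and Smad3, and 88.8% of 33469 promoter windows of the same length held them. The longer CAGAC, which contains AGAC, was in none of the 4 windows but in 50.1% of all windows, and the palindrome GTCTAGAC was in none of the 4 and in 0.197% of all. Of the GC-rich Smad motifs, searched on both strands like the others, GGCGC occurred 1 time in Tgfb1, 1 time in Tgfb2 and 2 times in Smad3, and GGCCG 1, 4 and 4 times, while the Tgfb3 window held neither. Overlapping matches on opposite strands were counted separately, as for GGCGC in Smad3 and GGCCG in Tgfb2 and Smad3. GGCGC was in 34.2% and GGCCG in 33.7% of all windows.

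For 5 of the 10 genes the annotated row was nearly empty, with fewer than 10 counts in every library, and in each of the 5 an unannotated row covered at least 50% of the gene. The annotated rows of Tgfb3, Smad4 and Smad7 were at 0 in all 6 libraries, whereas those of Tgfbr1 held 22 counts and Smad2 40 counts in total. Beside them stood 9588 counts on the unannotated row over Tgfb3, 532 over Tgfbr1, 2355 over Smad2 and 11058 on a row that spans Smad4 together with other genes. Which bases gave the counts of overlapping rows is not given in the sources used here, so each row is described on its own.

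**Figure D1:**
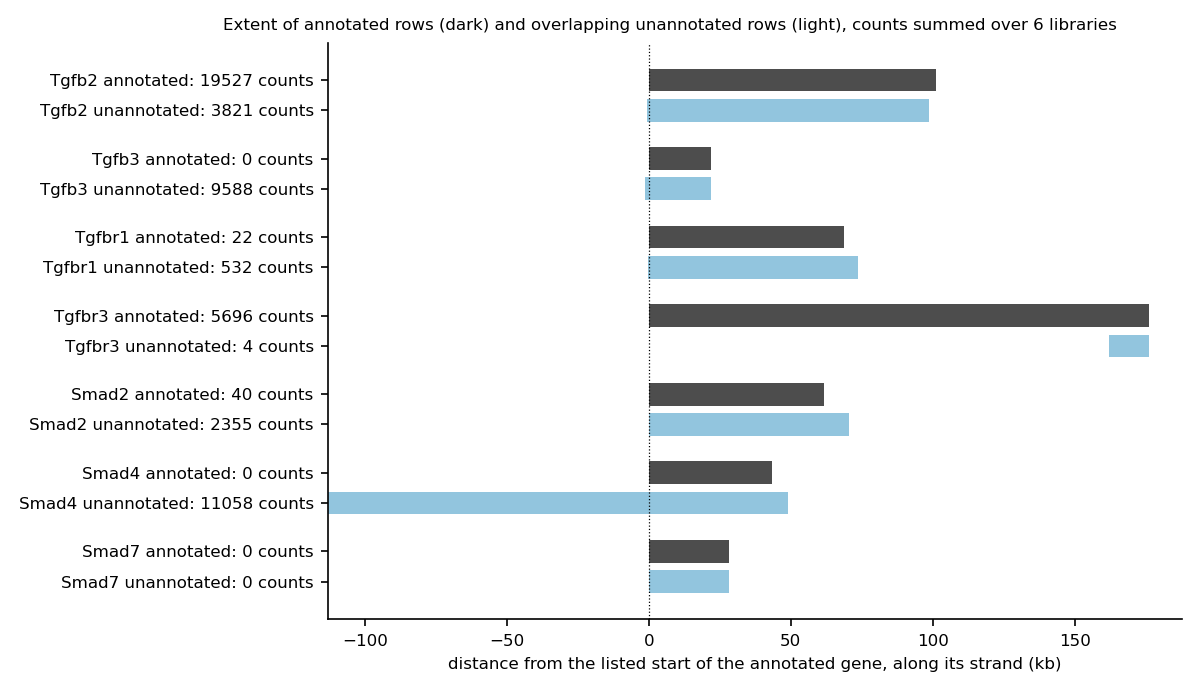
Span of the annotated row (dark) and of the unannotated row on the same strand (light) for the 7 genes that have one, in kb from the annotated start along the strand, with the counts of 6 libraries summed beside each name. The Tgfb3 counts all sit on the unannotated row, and the row over Smad4 reaches far upstream of the gene.

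Tgfb2 rose more than any other member. Its annotated row (ENSRNOG00000002418, chromosome 13, positions 105039853 to 105141030 of Rnor_6.0, minus strand) had 222, 230.4 and 246 CPM in si-NC replicates 1, 2 and 3. The si-DYRK1A replicates had 359.5, 335 and 338 CPM. All 3 si-DYRK1A libraries lay above all si-NC libraries, by more than the range within either group. The mean went from 233 ± 12.1 to 344 ± 13.5 CPM (SD, n = 3 each), a 1.48-fold rise with a log2 fold change of 0.56 (SE 0.0477, adjusted p = 3.52e-08 in edgeR).

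An unannotated row covers 97.6% of Tgfb2 and begins upstream of its listed start. On it, si-NC had 51.7, 36.9 and 42.4 CPM and si-DYRK1A had 66.0, 72.7 and 70.7 CPM. The groups were again apart, and the log2 fold change of 0.68 (SE 0.102, adjusted p = 0.000703) had the direction of the annotated row. With the counts of both rows summed, Tgfb2 had 276 ± 10.7 CPM in si-NC and 414 ± 10.1 CPM in si-DYRK1A (log2 fold change 0.58, SE 0.0434). A small nucleolar RNA, SNORA70, is listed inside Tgfb2 on the other strand, and whether the counting used strand is not given in the sources used here.

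Tgfb3, the ligand gene whose annotated row (ENSRNOG00000009867, chromosome 6, 109913757 to 109935533, minus strand) was empty, was measured through the unannotated row that covers 100% of it and no other gene of that strand. This row had 122, 115 and 126 CPM in si-NC and 174, 152 and 161 CPM in si-DYRK1A. The lowest si-DYRK1A library was above the highest si-NC library, and si-DYRK1A replicate 1 stood highest, as it did on the annotated row of Tgfb2. The mean rose 1.34-fold, from 121 ± 5.63 to 162 ± 11.3 CPM (log2 fold change 0.42, SE 0.0553, adjusted p = 1.36e-05).

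Tgfb1 went the other way. Its row (ENSRNOG00000020652, chromosome 1, 82480195 to 82497199, plus strand) had 224, 221 and 197 CPM in si-NC and 175, 186 and 196 CPM in si-DYRK1A. The groups did not overlap, but the highest si-DYRK1A and the lowest si-NC library were nearly level. The mean fell 1.15-fold, from 214 ± 14.9 to 186 ± 10.3 CPM (log2 fold change -0.21, SE 0.0546, adjusted p = 0.0131). Leaving out replicate 1 of si-NC ended the call (adjusted p = 0.0881), as did leaving out replicate 1 (0.0852) or replicate 2 (0.0593) of si-DYRK1A.

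**Figure D2:**
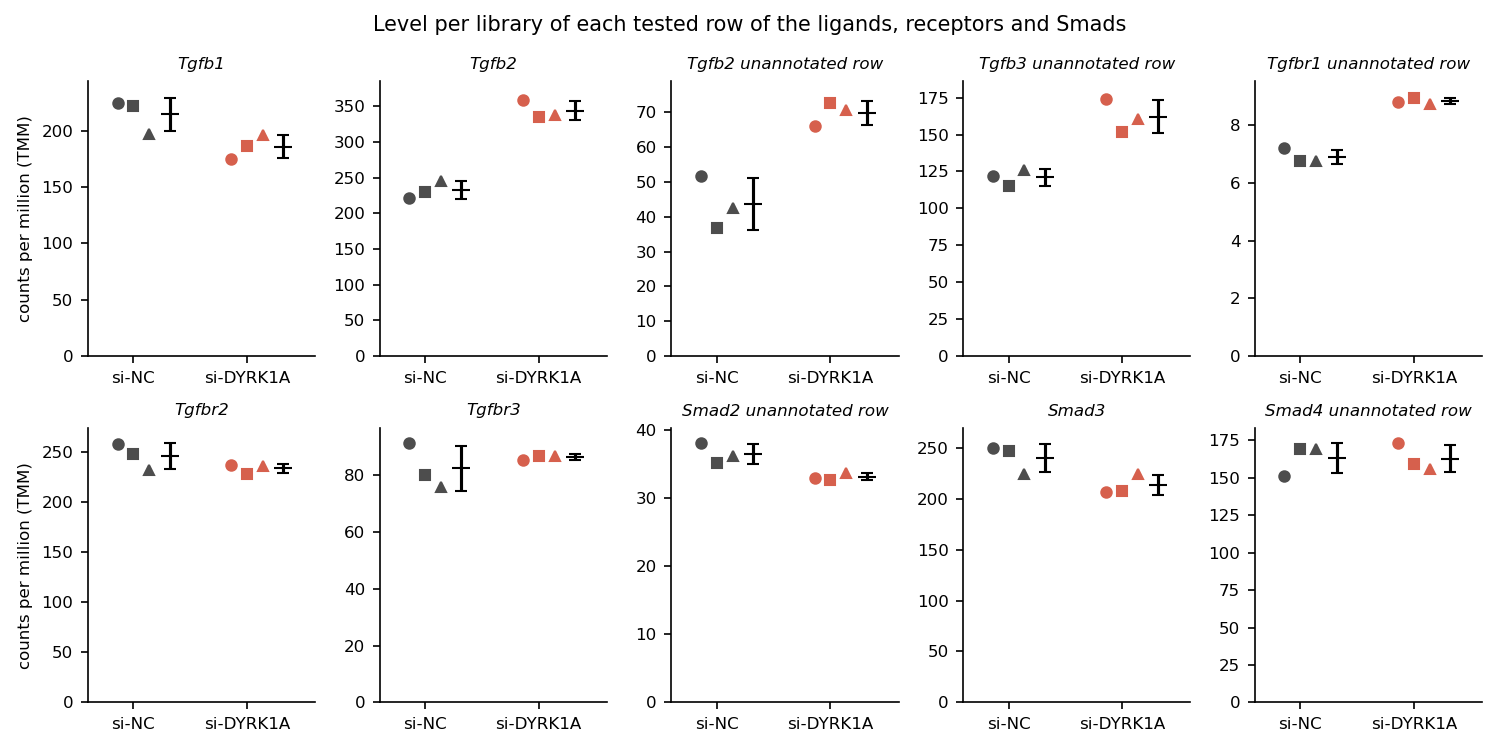
CPM with TMM normalization (vertical axis, from 0) in each library for the 10 tested rows; circles, squares and triangles are replicates 1, 2 and 3, and bars are the mean ± SD of 3 libraries. The Tgfb2 and Tgfb3 rows and the Tgfbr1 unannotated row lie above si-NC in every si-DYRK1A library, and Tgfb1 and the Smad2 unannotated row lie below.

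FPKM are counts per kilobase of row length, scaled to the library. Of the rows used for the 3 ligands, that of Tgfb1 was highest in si-NC at 99.6 ± 6.85, above Tgfb2 at 53.6 ± 2.85 and Tgfb3 at 32.4 ± 1.46. In si-DYRK1A, Tgfb1 at 86.0 ± 4.75 and Tgfb2 at 79.0 ± 3.06 FPKM were closer, and Tgfb3 stood at 43.3 ± 2.99. The ratio of Tgfb2 to Tgfb1 in FPKM was 0.490, 0.516 and 0.617 in the si-NC libraries and 1.02, 0.890 and 0.856 in the si-DYRK1A libraries. These ratios use the annotated rows and leave out the counts on the unannotated Tgfb2 row.

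Of the summed ligand FPKM, Tgfb1 made up 55.5, 55.1 and 50.4% in si-NC and 38.6, 42.4 and 42.9% in si-DYRK1A. Tgfb2 made up 27.2, 28.4 and 31.1% and then 39.3, 37.7 and 36.7%, and Tgfb3 went from 17.4, 16.5 and 18.6% to 22.1, 19.9 and 20.3%. The groups were apart for each ligand, and each difference had a two-sided exact permutation p of 0.1, the smallest that 3 against 3 libraries allow. The shares are parts of the same sum and so are not separate results. The sum itself was 186 ± 3.03 FPKM in si-NC and 208 ± 3.86 FPKM in si-DYRK1A (exact permutation p = 0.1). The share of Tgfb1 went from a mean of 53.6% to 41.3%, a difference of -12.3 percentage points.

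**Figure D3:**
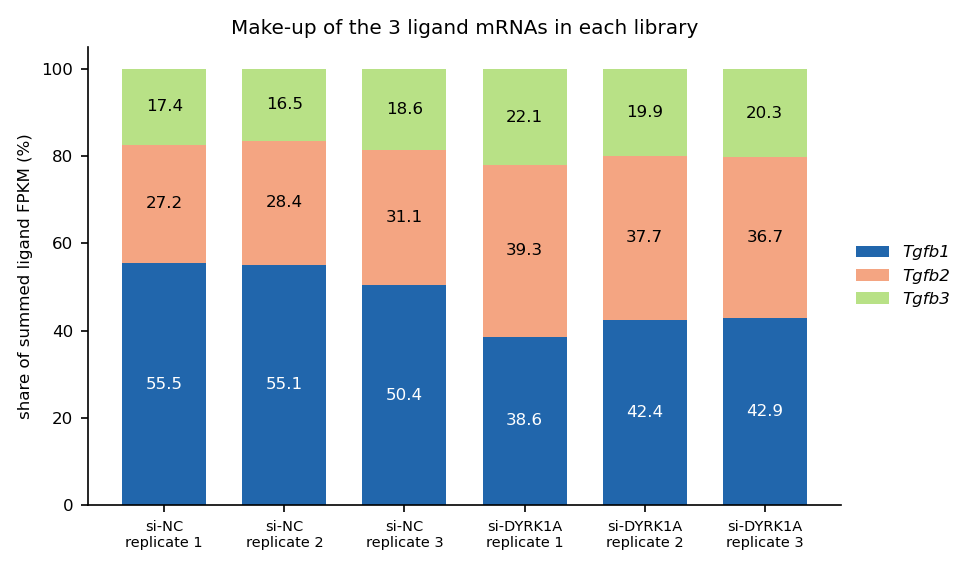
Share of the summed FPKM of the 3 ligands (vertical axis, %) held by Tgfb1, Tgfb2 and the Tgfb3 unannotated row in each of the 6 libraries. Tgfb1 holds 50.4 to 55.5% in si-NC and 38.6 to 42.9% in si-DYRK1A.

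None of the receptor rows passed the test. Tgfbr2, the ligand-binding type II kinase (ENSRNOG00000013265, chromosome 8, 124312754 to 124399494, minus strand), had 258, 248 and 232 CPM in si-NC and 237, 228 and 236 CPM in si-DYRK1A. The groups overlapped, with a log2 fold change of -0.07 (95% interval -0.17 to 0.03, adjusted p = 0.342). Tgfbr3, or betaglycan, a co-receptor that presents ligand (ENSRNOG00000002093, chromosome 14, 3506339 to 3682545, plus strand), had 91.1, 80.0 and 75.8 CPM and then 85.1, 86.8 and 86.8 CPM. All si-DYRK1A libraries fell inside the si-NC range, and the log2 fold change was 0.07 (95% interval -0.06 to 0.20, adjusted p = 0.528). An unannotated row over 7.98% of Tgfbr3 held only 4 counts in all and was not tested.

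Tgfbr1, the type I kinase that acts on Smad2 and Smad3 (ENSRNOG00000007036, chromosome 5, 63050758 to 63119635, plus strand), was seen mainly on an unannotated row that covers 100% of it. This row had 75, 80 and 81 counts in si-NC and 100, 95 and 101 counts in si-DYRK1A, or 7.19, 6.77 and 6.77 against 8.80, 8.95 and 8.74 CPM. The groups did not overlap, but the log2 fold change of 0.35 had a 95% interval of 0.04 to 0.67 and did not pass the test (adjusted p = 0.134). The few counts on the annotated row went the other way, with 8, 3 and 6 in si-NC and 1, 1 and 3 in si-DYRK1A, too few for the test.

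In FPKM, the Tgfbr2 row stood highest of the receptor rows, with 87.7 ± 4.66 in si-NC and 83.1 ± 1.57 in si-DYRK1A. Tgfbr3 had 13.5 ± 1.26 and 14.1 ± 0.163, and the Tgfbr1 unannotated row 1.00 ± 0.0325 and 1.28 ± 0.0165. Abundant heart genes with overlapping rows, as Tgfbr1 has, were listed without counts. The Tgfbr1 row may therefore understate its mRNA and its share. The share of Tgfbr2 in the summed receptor FPKM was 85.2, 86.2 and 86.0% in si-NC and 84.7, 84.0 and 84.4% in si-DYRK1A. The share of Tgfbr1 went from a mean of 0.981% to 1.30% and that of Tgfbr3 from 13.2% to 14.4%. The groups were apart for all 3 shares, at an exact permutation p of 0.1 each, the smallest the design allows. As parts of the same sum, these shares are not separate results.

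Smad3 (ENSRNOG00000008620, chromosome 8, 68569530 to 68678349, minus strand), the receptor-regulated Smad that binds DNA itself, had 249, 247 and 224.1 CPM in si-NC. The si-DYRK1A libraries had 207, 208 and 224.6 CPM. Replicates 1 and 2 were lower in si-DYRK1A, and the third library of each group had nearly the same level, so that the groups overlapped. The mean was 240.1 ± 13.96 and 213 ± 9.89 CPM (log2 fold change -0.17, SE 0.0505, adjusted p = 0.0237), a 1.13-fold fall. Leaving out replicate 1 (adjusted p = 0.131) or replicate 2 (0.0615) of si-NC ended this call, as did leaving out replicate 1 (0.108) or replicate 2 (0.128) of si-DYRK1A, and limma-voom gave 0.056.

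Smad2, its close relative (ENSRNOG00000018140, chromosome 18, 72550219 to 72612078, plus strand), was measured through an unannotated row that covers 100% of it and runs past its listed end. The row had 38.1, 35.1 and 36.1 CPM in si-NC and 33.0, 32.7 and 33.7 CPM in si-DYRK1A. All si-DYRK1A libraries were below all si-NC libraries, but the log2 fold change of -0.14 (SE 0.0775) did not pass the test (adjusted p = 0.269). On the annotated row, si-NC had 6, 9 and 5 counts and si-DYRK1A had 8, 8 and 4.

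For Smad4, the partner shared by the receptor-regulated Smads (ENSRNOG00000051965, chromosome 18, 69627757 to 69671199, minus strand), no level of its own could be given. The only counts were on an unannotated row that also spans Elac1, Me2 and AABR07032518.1 on the same strand. That row had 151, 169 and 169 CPM in si-NC and 173, 159 and 156 CPM in si-DYRK1A, overlapping groups with a log2 fold change of -0.00 (95% interval -0.12 to 0.11, adjusted p = 0.972). Smad7, the inhibitory Smad (ENSRNOG00000018359, chromosome 18, 71395830 to 71424157, plus strand), was listed at 0 in all 6 libraries on its annotated row and on an unannotated row over 100% of it. The abundant heart genes Myh6, Myl2 and Tnni3 were also listed at 0 under overlapping rows, so a 0 here sets no limit on the level.

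In FPKM, Smad3 stood at 47.4 ± 2.73 in si-NC and 41.9 ± 1.92 in si-DYRK1A, and the Smad2 unannotated row at 3.31 ± 0.127 and 3.00 ± 0.0435. Averaged over the 6 libraries, the order of the levels was Tgfb1 at 92.8, Tgfbr2 at 85.4, Tgfb2 at 66.3, Smad3 at 44.7, Tgfb3 at 37.8, Tgfbr3 at 13.8, Smad2 at 3.16 and Tgfbr1 at 1.14 FPKM. Over the libraries of si-NC, the only neighbours in this order that overlapped were Tgfb1 and Tgfbr2. In si-DYRK1A, Tgfb1, Tgfbr2 and Tgfb2 overlapped, and so did Smad3 and Tgfb3. Between the groups the order of Smad3 and Tgfb3 turned, from 47.4 and 32.4 FPKM in si-NC to 41.9 and 43.3 FPKM in si-DYRK1A. These levels assume the lengths listed by the authors, and those of unannotated rows depend on how the regions were assembled. Counts on overlapping rows may also be incomplete, so the places of Tgfb3, Smad2 and Tgfbr1 in this order are those of their rows.

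**Figure D4:**
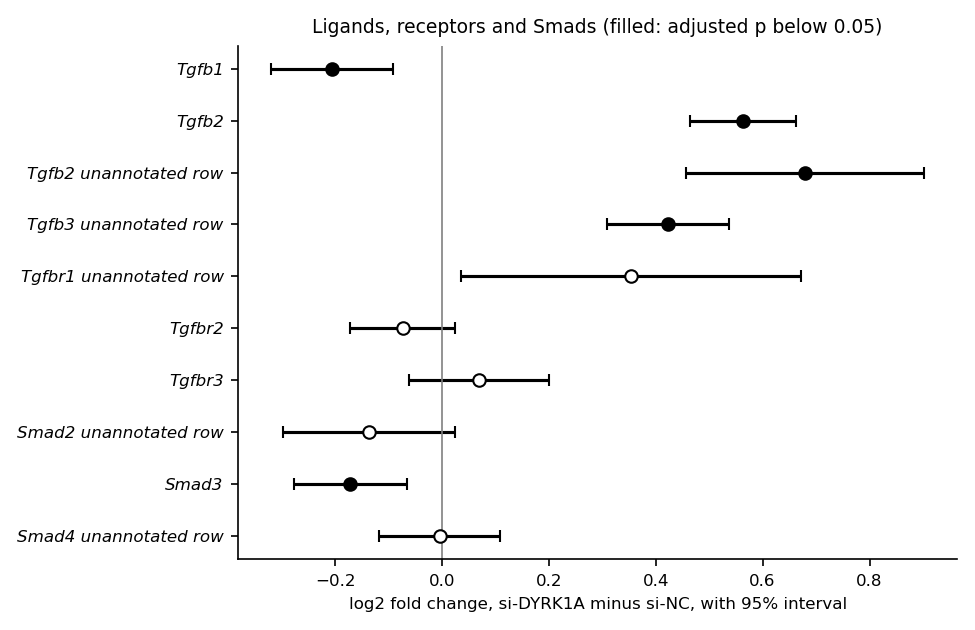
Log2 fold change of si-DYRK1A against si-NC (horizontal axis) with its 95% interval from the edgeR fit for the 10 tested rows; filled points passed an adjusted p of 0.05. The Tgfb2 and Tgfb3 rows lie between 0.42 and 0.68, and Tgfb1 and Smad3 at -0.21 and -0.17.

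The surrounding pathway was described with 6 lists of 140 genes, of which 138 were found and 75 could be tested on their annotated row. In all, 12 were higher (16%, against 8.03% of all rows) and 11 lower (14.7%, against 7.19%), with a median log2 fold change of -0.04. Of the 63 genes found but not tested, 61 are covered by an unannotated row, so the lists are seen only in part.

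Among genes that hold or release latent TGF-beta, 1 of 8 tested was higher (12.5%, against 8.03% of all rows) and 3 were lower (37.5%, against 7.19%). Itgb6, a subunit of an integrin that activates the latent complex, had 8.82, 10.7 and 10.7 CPM in si-NC and 15.7, 16.3 and 14.5 CPM in si-DYRK1A (log2 fold change 0.62, adjusted p = 0.00164). The latent TGF-beta binding protein Ltbp4 fell by 0.32 on the log2 scale, and the proteases Mmp9 and Plau by 0.34 and 0.38. Leaving out replicate 2 of si-NC ended the Ltbp4 call (adjusted p = 0.0609). The most abundant tested genes without a call were the integrin subunits Itgav and Itgb8, at log2 fold changes of -0.02 and -0.09. Thbs1, thrombospondin 1, which can release active ligand, had 0 counts on its annotated row, and the unannotated row over it was higher (log2 fold change 0.27, adjusted p = 4.56e-05).

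Of 10 tested co-receptors and receptor regulators, 1 was higher (10%, against 8.03% of all rows) and 2 lower (20%, against 7.19%). Bambi, a pseudoreceptor without a kinase domain that dampens signalling, had 97.7, 98.4 and 95.7 CPM in si-NC and 118, 125 and 127 CPM in si-DYRK1A (log2 fold change 0.35, adjusted p = 5.47e-05). Vasn, a cell-surface protein that traps ligand, fell by 0.34 and Ppp1r15a, a phosphatase subunit, by 0.38 on the log2 scale. Pmepa1 and Smurf2, negative regulators that the pathway is known to induce, had log2 fold changes of 0.07 and 0.06 and were not called. The unannotated row over Acvrl1, a type I receptor best known from endothelial cells, was lower (log2 fold change -0.97, adjusted p = 0.00304). In limma on log2 FPKM that call was lost (adjusted p = 0.0724 with a pseudocount of 1, where the value was -0.54, and 0.0836 with 0.1).

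None of 11 tested Smad partners and regulators was called by edgeR, DESeq2 or limma-voom, while edgeR called 15.2% of all rows. Of the 11, 1, Xpo4, was at an unadjusted p under 0.05 (log2 fold change 0.18, adjusted p = 0.0519). Hdac1, a histone deacetylase and the most abundant of them, had a log2 fold change of -0.10. Without si-NC replicate 2, Hdac1 passed the test (adjusted p = 0.0417). In the branch that runs through kinases rather than Smads, 1 of 11 was lower (9.09%, against 7.19% of all rows). This was Mapk14, the p38 alpha kinase, with 237, 236 and 235 CPM in si-NC and 207, 201 and 199 CPM in si-DYRK1A (log2 fold change -0.22, adjusted p = 0.00112). Rock1 and Traf4 were not called, at -0.10 and 0.00.

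The activin branch shares Smad2 and Smad3 with TGF-beta. Of its 8 tested genes 2 were higher (25%, against 8.03% of all rows) and 2 lower (25%, against 7.19%). Inhbb, which encodes an activin subunit, had 25.1, 29.0 and 27.9 CPM in si-NC and 40.6, 41.9 and 41.4 CPM in si-DYRK1A (log2 fold change 0.59, adjusted p = 2.34e-05). Fstl3, a secreted protein that binds and blocks activins, had 58.2, 54.9 and 50.3 CPM and then 26.0, 29.0 and 29.6 CPM (log2 fold change -0.95, adjusted p = 4.18e-08). Mstn, myostatin, rose from low levels of 4.31, 2.62 and 2.93 CPM to 7.04, 6.03 and 6.84 CPM (log2 fold change 1.02, from 0.65 to 1.25 over the alternatives, adjusted p = 0.00191), and Gdf11 fell by 0.25. The Gdf11 call ended when replicate 1 of si-NC (adjusted p = 0.0883) or replicate 1 (0.0818) or 2 (0.0613) of si-DYRK1A was left out. The unannotated row over Inhba, the other main activin subunit, was higher (log2 fold change 0.68, adjusted p = 7.48e-09). Acvr2a and Inha were not called, at -0.05 and -0.04.

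Of 27 tested genes known as targets of the pathway, 8 (29.6%, against 8.03% of all rows) were higher and 3 (11.1%, against 7.19%) lower. At an unadjusted p under 0.05 in edgeR, 8 were higher and 8 lower, with no share of all rows at that threshold to set beside them. The log2 fold change was above 0 in 11 of the 27, and its median was -0.05, beside 0.00 over all rows. Tnc, tenascin C, a matrix protein, had 49.6, 49.4 and 45.7 CPM in si-NC and 73.0, 74.4 and 81.5 CPM in si-DYRK1A (log2 fold change 0.66, SE 0.067, adjusted p = 4.79e-07). The groups did not overlap. Among other genes of the matrix, Spp1 rose by 0.38, Has2, a hyaluronan synthase, by 0.97, and Postn, periostin, by 1.10 from a low level. Actn1 rose by 0.51 and Ctgf by 0.29. Tgfbi, a secreted protein that binds collagen, rose by 0.24. Cyr61 fell by 0.25 on the log2 scale, Bgn, a small proteoglycan, by 0.17 and Lox, which crosslinks collagen, by 0.16.

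The most abundant tested targets, both collagens, were not called. Col1a1 was at a log2 fold change of -0.37 (adjusted p = 0.0869) with all si-DYRK1A libraries below all si-NC libraries, and Col3a1 at 0.02 (adjusted p = 0.807). Col1a1 passed the test, as lower, without si-NC replicate 2 (adjusted p = 7.22e-05) or si-NC replicate 3 (0.00177), in DESeq2 (0.0122), in limma-voom (0.00447) and with a replicate block (0.00353). The unannotated row over Zeb1, a transcription factor, was higher (log2 fold change 0.18, adjusted p = 0.0402), a call that ended in 11 of 16 alternatives.

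**Figure D5:**
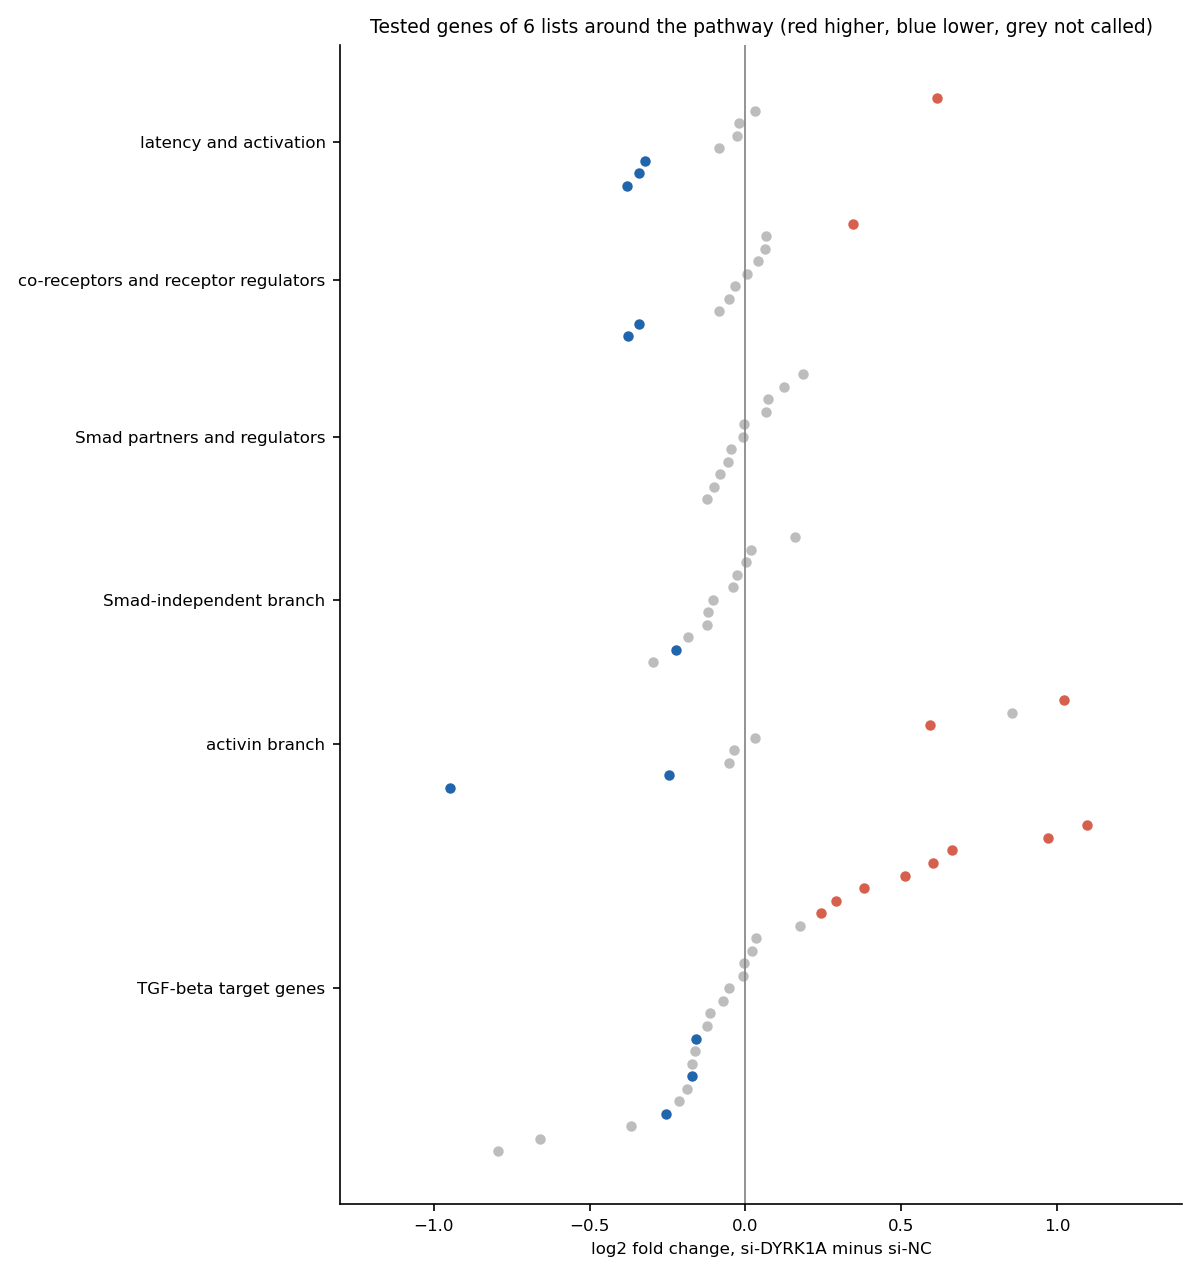
Log2 fold change of si-DYRK1A against si-NC (horizontal axis) for the 75 tested genes of 6 lists, 1 point per gene, ordered within a list; red points were called higher, blue lower and grey not called. Target genes hold 27 of the 75 points, with 8 of the 12 red and 3 of the 11 blue points.

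Markers of several cell types moved between the same groups, and their part in the results above was not tested. The counts of called markers here and in the next paragraph stand beside 8.03% of all rows called higher and 7.19% lower. Cardiomyocyte markers summed to 12711 to 13808 CPM in si-NC and 15269.8 to 16009.9 CPM in si-DYRK1A, with 3 of 6 tested called, each higher (log2 fold change 0.37 for Nppa, 0.31 for Actn2 and 0.15 for Pln, beside -0.11 for Myl3, not called), and with Tnni3, Myh6, Myh7, Myl2 and Mybpc3 listed at 0 under unannotated rows. Fibroblast markers, led by Col1a1 and Col3a1, summed to 25057 to 29877 and 24415 to 25365 CPM, with 3 of 7 called, each higher (Lum 0.59, Vim 0.23 and Postn 1.10), and Pdgfra and Ddr2 at 0. Endothelial markers summed to 197 to 218 and 168 to 177 CPM, with 3 of 9 called, each lower (Tek -0.75, Tie1 -0.43 and Cdh5 -0.31, beside -0.01 for Kdr, not called), and Flt1 at 0.

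Epicardial markers summed to 199 to 204 and 169 to 173 CPM, with 5 of 6 called, each lower (Lrrn4 -0.67, Upk3b -0.90, Msln -0.34, Wt1 -0.31 and Krt19 -0.40, beside 0.09 for Aldh1a2, not called), and Upk1b and Tbx18 at 0. Smooth muscle and mural cell markers summed to 2834 to 3079 and 2660.4 to 2796 CPM, with 1 of 4 called, which was Des, lower by a log2 of -0.15, against -0.01 for Cnn1, with the unannotated row over Rgs5 higher (log2 fold change 0.55, adjusted p = 1.34e-05), and with Acta2, Myh11 and Smtn at 0. Macrophage markers summed to 339 to 356 and 343 to 385 CPM, with 2 of 10 called, each higher (Lyz2 0.41 and Cd163 0.87, beside -0.13 for Csf1r, not called), and Cd68 at 0. Only 4 of the 10 had a log2 fold change above 0, and the median of the macrophage list was -0.08. Leaving out replicate 1 of si-DYRK1A ended the calls of Krt19 (adjusted p = 0.0543) and Des (0.0945), and leaving out replicate 1 of si-NC that of Des (0.0679).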

How the data were processed

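RNA-seq of 6 libraries was used, 3 per group by the sample labels. Per the study's methods, HISAT2 placed paired reads on Rnor_6.0. The authors deposited raw counts per row, and FPKM values, which the authors made from the same counts and the listed lengths with 1 constant per library. The submitters' processing notes instead name Bowtie 0.12.2 and the mouse build mm8, and the labels a TruSeq kit where the methods give NEBNext. Neither the counting tool nor its strand setting is stated in the sources used here.

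Counts were tested with edgeR 4.0.16 in R 4.3.3: TMM, the filterByExpr filter (minimum count 10 in 3 libraries, total 15), robust quasi-likelihood test, two-sided, group only, adjusted by the Benjamini-Hochberg method over all 15513 rows at 0.05. The SE is the log2 fold change divided by the root of the F statistic. CPM use the same scaling. Shares were tested by exact permutation. Rows without annotation were placed with GenomicRanges 1.54.1. The scripts were tested on simulated data. The alternatives were DESeq2 1.42.0, limma 3.58.1 (voom, and log2 of FPKM with a pseudocount of 1 or 0.1 for rows above 0.5 FPKM in 3 libraries), other scalings and filters, an adjusted p of 0.01, a replicate block, sums with unannotated rows, and each library left out.

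The members and lists were chosen with earlier results of these data known. Of 200 listed symbols, 196 were found. Named were all members, from each pathway list up to 8 called genes with the smallest p and the 2 most abundant not called, from each cell type list the 2 most abundant, and Dyrk1a. Genes on unannotated rows (Thbs1, Acvrl1, Inhba, Zeb1, Rgs5), Xpo4, Tgfbi, Bgn, Lox, other called markers, markers at 0 and genes inside a member's unannotated row were named after their values were seen. Promoters were matched by symbol, and all 10 members had a RefSeq window. Some single genes of the lists are counted but not reported here.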

Additional observations from a re-analysis of the deposited data

How the results depend on the processing

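Under all 17 alternatives run on each, the Tgfb2 and Tgfb3 rows kept their calls, with log2 fold changes of 0.53 to 0.60 for annotated Tgfb2 and 0.37 to 0.47 for Tgfb3, and the unannotated row over Tgfb2 did so under 16 (0.57 to 0.81). The count of 5 called member rows became 3, all higher, in limma on log2 FPKM with either pseudocount (Tgfb1 adjusted p = 0.113 and 0.118, Smad3 0.131 and 0.136) and at an adjusted p of 0.01, and lay between 3 and 5 with 1 library left out. The count was 3 when replicate 1 of si-NC or replicate 1 or 2 of si-DYRK1A was left out. In limma-voom it was 4, beside 13.1% of all rows. Fewer of all rows were called in these settings too. Beside 15.2% in the edgeR test of the Results, limma on log2 FPKM called 7.32% or 7.1% by pseudocount. At an adjusted p of 0.01 the share was 8.43%, and with 1 library left out it was 10.1 to 13.9%. The Smad4 unannotated row changed sign with 1 library left out (log2 fold change -0.0566 to 0.0257, above 0 in 4 of these fits). The cause was not tested.

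The numbers of the replicates share no deviation (same-number correlations 0.0578, -0.0261 and -0.00409), and with a replicate block 5 member rows and 25 pathway genes were called, beside 5 and 23 without it. Pathway genes called ranged from 17 of 73 tested in limma on log2 FPKM to 30 of 107 with summed rows. The edgeR test of the Results called 23 of 75, and 15.2% of all rows. The share of all rows called was 15.6% with summed rows and, in limma on log2 FPKM, 7.32% or 7.1% by pseudocount. It was 13% in DESeq2, 14.6% with the replicate block, 15.5% by library size alone and 9.25% without the filter on low counts. By list, the called-lower count of target genes went from 3 to 5 in DESeq2 and with the replicate block, and that of the latency list from 3 to 0, co-receptors from 2 to 1 and the activin branch from 2 to 1 in limma on log2 FPKM. The activin count was also 1 at an adjusted p of 0.01. The Smad-independent branch had 2 lower by library size alone, where the median of all rows moved to -0.02. Latency genes called higher went from 1 to 2 with summed rows or with unannotated rows standing in (an alternative added after seeing the data). Smad partners had 1 higher without the filter or without replicate 3 of si-DYRK1A, and 1 lower with summed rows or without replicate 2 of si-NC.

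Shares moved as follows, in percentage points. Without division by length, Tgfb3 changed by 2.12, Tgfbr1 by 0.621, Tgfbr2 by -2.33, Tgfbr3 by 1.71 and Smad2 by -0.194 instead of 3.30, 0.315, -1.45, 1.14 and 0.0201. On annotated rows alone, Tgfb2 changed by 12.8 instead of 9.02, Tgfbr1 by -0.0588 and Smad3 by -0.0748 instead of -1.50, since the unannotated rows were then left out. With rows summed, Tgfbr1 changed by 0.257. Smad shares count the row over Smad4, which spans other genes, in their sum. With 1 library left out, Smad3 changed by -2.25 to -0.863 (-0.866 without replicate 1 of si-NC, -0.863 without replicate 1 of si-DYRK1A, -2.25 without replicate 3 of si-NC), the Smad4 row by 0.788 to 2.12 instead of 1.48, and Smad2 changed by -0.153 to 0.135.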
